A study of Arabis alpina with 12 samples.

Results

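MYB and basic helix-loop-helix (bHLH) transcription factors were followed in lateral buds of Arabis alpina, a perennial relative of Arabidopsis thaliana. The genes were taken from 4 tables in which the authors listed genes that differed between buds, by searching the annotation text for MYB domain, MYB-like, MYB transcription factor, bHLH or basic helix-loop-helix. This gave 48 genes of the 19722 in the table of normalized counts and of the 3884 listed in any of the 4 tables. By the words of their annotation 25 were placed in the MYB and 23 in the bHLH group, which does not settle the protein family of each gene. Of the 48 genes, 29 carry the symbol of their A. thaliana homologue. The other 19 are called here by the locus of that homologue.

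MYB proteins bind DNA through repeats of a helix-turn-helix fold and control the fate of epidermal cells, cell wall and phenylpropanoid synthesis, glucosinolates and stress responses. MYB-related proteins include clock-like and RADIALIS-like factors. bHLH proteins bind DNA as dimers, and many integrate light, brassinosteroid and jasmonate signals. A branch of atypical HLH proteins lacks the basic region, does not bind DNA and acts by capturing other bHLH partners. In the epidermis, MYB and bHLH proteins work together in complexes that start trichomes.

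Polyadenylated RNA was sequenced from plants of the ecotype Pajares. They had spent 8 weeks in long days, with 16 h of light (20 °C) and 8 h of darkness (18 °C), and then 12 weeks of vernalization (4 °C, again with 16 h of light). The 4 groups were V3 buds from the growing zone at 5 d, 5 days after the return to long days, V2 buds from the dormant zone at 5 d, V3 buds at 0 d, the last point of the cold, and V2 buds at 0 d. All groups shared genotype, cold treatment and organ, and each held 3 libraries that the labels call biological replicates. The labels give neither the number of plants or buds per library nor the hour of harvest, and where replicates share a plant or a day the p-values measure only the spread between these libraries.

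Reads recovered from the normalized counts came to 12252622 to 22586938 per library. The V2 0 d replicate 3 library was the smallest and stood apart: of the genes for which both partner libraries held counts, 34% were listed at 0 there, against 1.47% to 2.78% in the other 11 libraries. V3 0 d replicate 1 also stood apart among the 48 genes, with the lowest FPKM (reads scaled to transcript length and depth) of its group in 27 genes and the highest in 13. Of the 576 values of the 48 genes, 92 were listed at 0. Of these, 35 zeros in 12 genes were contradicted by the FPKM of the same library and were left out as failed measurements. In the text, a value left out in this way is named as left out. Markers could be paired with a listed gene for 2 of 7 floral loci (CRC and UFO), 5 of 7 vascular, 2 of 13 photosynthetic and 3 of 4 senescing-leaf loci, and none of the paired genes was at 0 in all libraries. The labels name the organ, and no defining marker of a bud as such was on these lists. These are bulk samples, so fewer cells of a type and less RNA per cell cannot be told apart.

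Fold changes are differences of log2(normalized count + 1), given with the standard error (SE). They tend to understate the change of low genes. Where only some libraries of a group were kept at 0, those zeros can instead overstate the change. Adjusted p-values are from limma with Benjamini-Hochberg adjustment over all genes tested, and a gene is said to rise, fall or be called where that value is under 0.05. Values per library are given in the order of replicates 1, 2 and 3, and means are given ± SD with n = 3 unless another n is printed. Where all usable libraries of a group were listed at 0, the zeros add no spread and the adjusted p can be too low. The fold is then given as a lower bound against 3 reads per library only where the mean FPKM differed by at least as much, and otherwise the FPKM of both groups is given with no fold.

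Every gene here was listed by the authors in at least 1 of the same comparisons, with log2 fold changes whose smallest sizes among the 48 genes were 1.06 and 1.03 (V3 over V2 at 5 d and at 0 d) and 1.08 and 1.09 (5 d over 0 d in V3 and in V2) in the authors' deposited table. The number called is therefore no independent evidence of change and is printed beside its background. In V3 against V2 at 5 d, 20 of 45 genes tested were called, 10 higher and 10 lower, where 36.1% of all genes were called (16.2% higher, 19.9% lower) and 59% of the listed genes (26.2% higher, 32.7% lower). In V3 against V2 at 0 d, 4 of 43 genes tested were called and all were lower, where 4.38% of all genes (1.13% higher, 3.25% lower) and 13.1% of the listed genes (3% higher, 10.1% lower) were called. None was called higher by limma at 0 d, although 5 were higher at an unadjusted p under 0.05. On the recovered reads with zeros as deposited, edgeR called 1 gene higher and none lower, and DESeq2 called 3 higher and 10 lower. The gene higher by edgeR was MYB53, also 1 of the 3 of DESeq2. Its V2 counts at 0 d were zeros that FPKM contradicts (below). From 0 d to 5 d in V3, 31 of 45 genes tested were called, 18 higher and 13 lower at 5 d, where 24.3% of all genes (13.4% higher, 10.9% lower) and 49.2% of the listed genes (34.2% higher, 15% lower) were called. In V2, 16 of 42 genes tested were called over the same days, 9 higher and 7 lower, where 23.9% of all genes (12.6% higher, 11.3% lower) and 46.5% of the listed genes (29.3% higher, 17.2% lower) were called.

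The median log2 fold change of the genes tested was -0.17 for V3 over V2 at 5 d, beside -0.04 over all genes and -0.20 over the listed genes. At 0 d it was -0.49, beside -0.03 and -0.36. For 5 d over 0 d it was 0.72 in V3, beside -0.02 and 0.30, and 0.14 in V2, beside 0.00 and 0.44. Setting the 3 to 5 genes per comparison with a group listed at 0 to their bound against 3 reads left these 4 medians as they were. As these genes kept their direction, the medians could hardly move, so this does not test the effect of the zeros. In V3 against V2 at 5 d the MYB genes had 3 higher and 8 lower of 23 tested, and the bHLH genes 7 higher and 2 lower of 22. Those counts ranged over 2 to 4 and 7 to 9 for MYB, and 5 to 7 and 1 to 3 for bHLH, when single libraries were left out. The groups did not overlap in 27 of 46 genes at 5 d, where 56.5% of all genes did not, in 19 of 44 at 0 d (32.3% of all genes), in 36 of 46 over time in V3 (42% of all genes) and in 23 of 43 over time in V2 (49.2% of all genes).

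**Figure D1:**
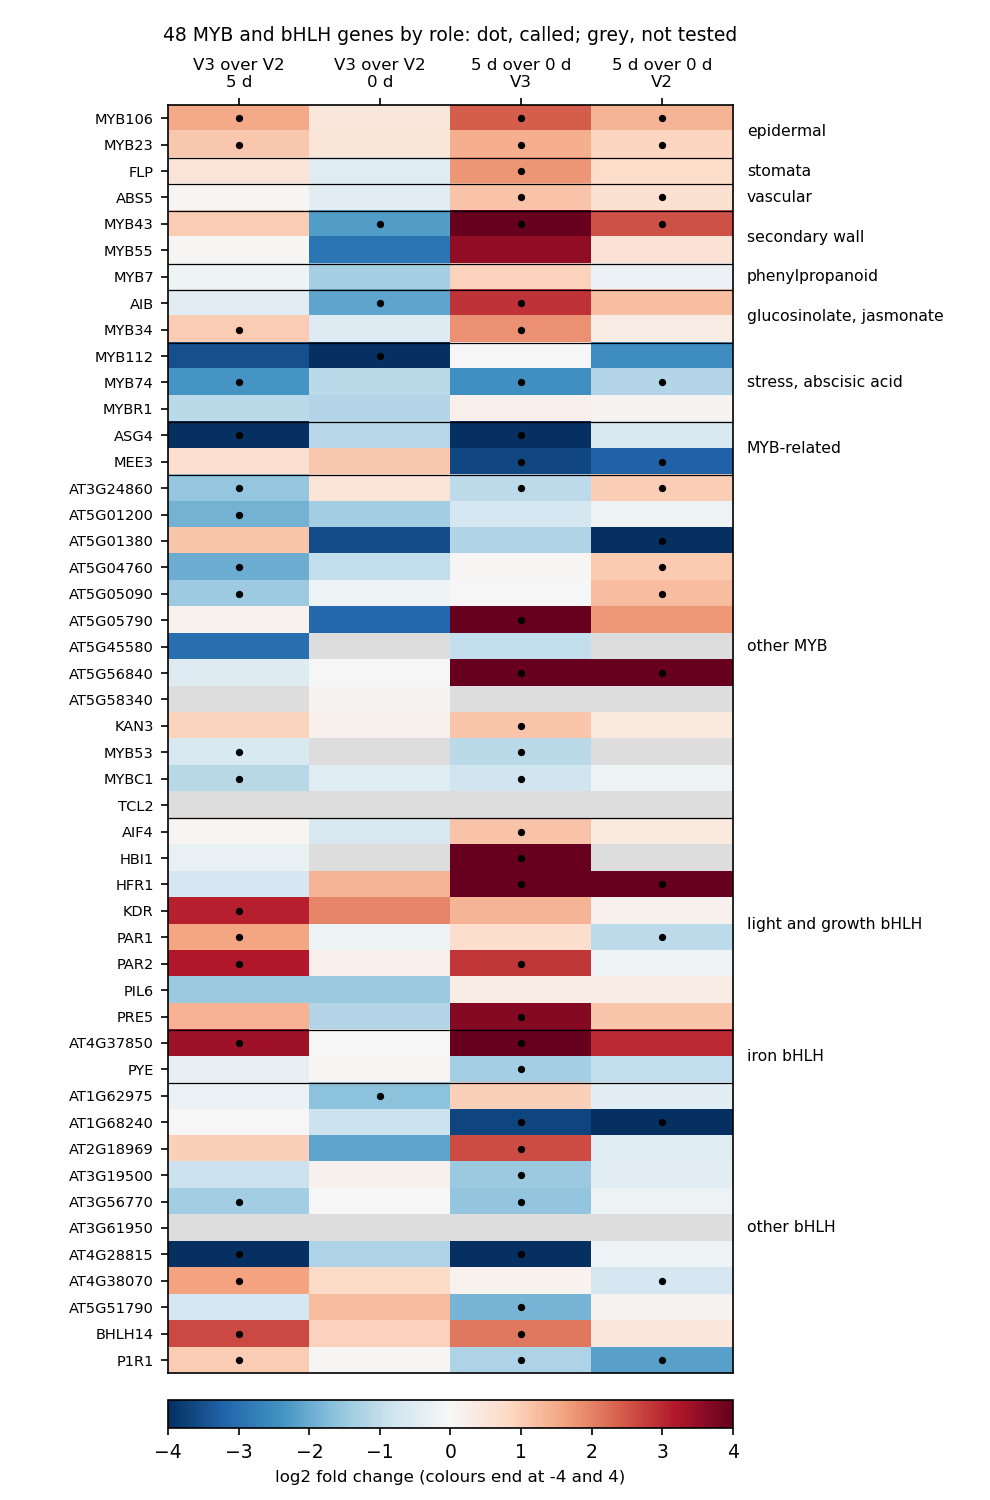
Log2 fold changes of the 48 genes (rows, grouped by role) in 4 comparisons (columns), red for higher and blue for lower in the group named first, with colours ending at -4 and 4. A dot marks a gene called at an adjusted p under 0.05 and grey a comparison not tested; the column of 5 d over 0 d in V3 holds 31 dots and that of V3 over V2 at 0 d 4.

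The 2 epidermal MYB genes rose over time in both zones and were higher in V3 than in V2 at 5 d. MYB106 (a MIXTA-like factor that shapes trichomes and the cuticle in A. thaliana) had 2326, 2047 and 2149 normalized counts in V3 and 829, 771 and 678 in V2 at 5 d. Its values at 0 d were 293, 515 and 437 in V3 and 258, 389.5 and 253 in V2. Every V3 library at 5 d lay above every other library, and the V2 libraries at 5 d lay above all those at 0 d, while the zones overlapped at 0 d. The log2 fold change of V3 over V2 at 5 d was 1.52 (SE 0.22, adjusted p = 0.000902). From 0 d to 5 d MYB106 rose by 2.42 in V3 (SE 0.22, adjusted p = 6.87e-05) and by 1.36 in V2 (SE 0.22, adjusted p = 0.00257). The difference between these rises, 1.06, was not called (adjusted p = 0.0652).

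MYB23, which starts trichomes together with GLABRA1, followed the same order at a lower level. Its normalized counts were 868, 844 and 646 in V3 and 432, 366 and 318 in V2 at 5 d. The 0 d libraries held 211, 327 and 336 in V3 and 192, 195 and 231 in V2. The zones were apart at 5 d and overlapped at 0 d. MYB23 was higher in V3 than in V2 at 5 d by 1.08 (SE 0.21, adjusted p = 0.0037). It rose by 1.45 in V3 (adjusted p = 0.0011) and by 0.85 in V2 (adjusted p = 0.0172), and the call in V2 ended without V2 5 d replicate 1 (adjusted p = 0.0668). TCL2, an inhibitor of trichome formation that lies beside near-identical genes in A. thaliana, so that its reads are uncertain, averaged 7.35 ± 2.97 normalized counts in V3 and 5.66 ± 1.96 in V2 at 5 d. At 0 d it was listed at 0 in every usable library of both zones (n = 2 each). Its mean was under the minimum of 10, so it was not tested. Its FPKM overlapped between 5 d, 0.715 to 2.40 in V3 and 0.654 to 1.41 in V2, and 0 d, 0.347 to 1.42 in V3 and 0.365 to 1.66 in V2.

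**Figure D2:**
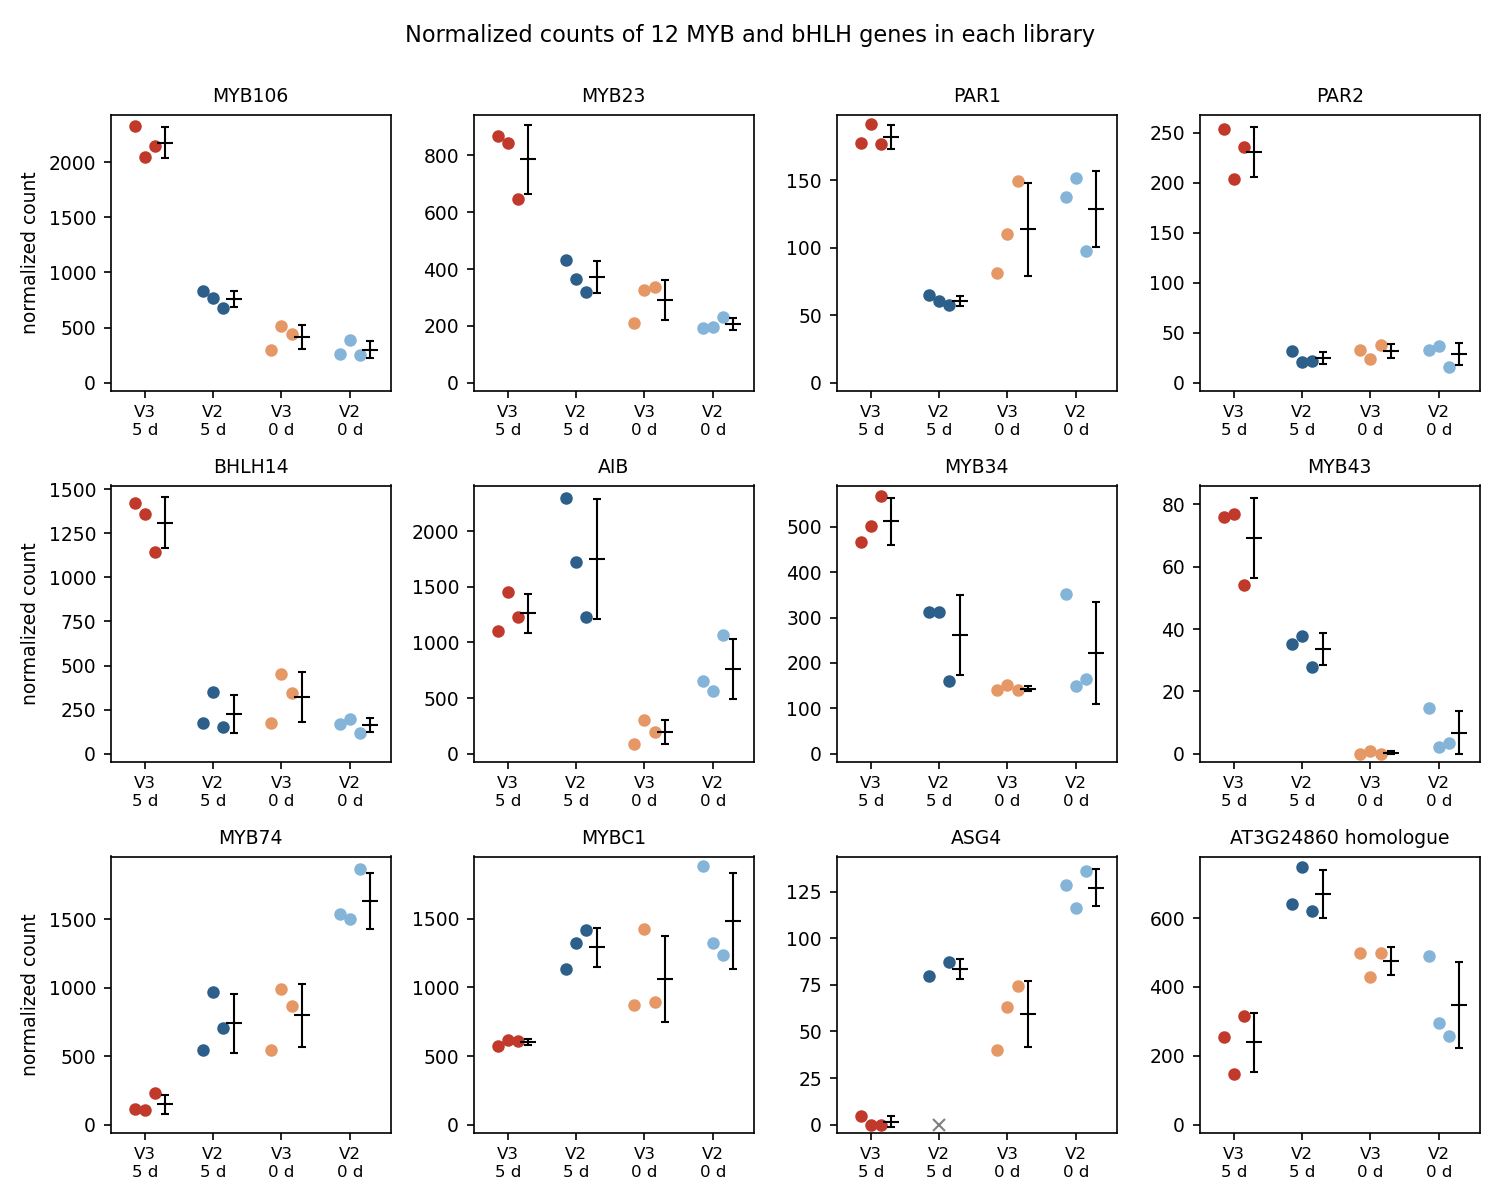
Normalized counts of 12 genes in each library, in V3 and V2 buds at 5 d and at 0 d; points are libraries, black bars the mean ± SD, and a grey cross a value listed at 0 that was left out. MYB106, MYB23, PAR2 and BHLH14 stand highest in the 3 V3 libraries at 5 d, while MYB74 and MYBC1 stand lowest there.

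Of 8 bHLH genes of light, brassinosteroid and growth signalling, 3 were higher in V3 than in V2 at 5 d, where 16.2% of all genes and 26.2% of the listed genes were, and none was called lower by limma (PIL6 was the lowest, below; DESeq2 called it lower, edgeR did not). Over time 5 of 8 rose in V3, where 13.4% of all genes and 34.2% of the listed genes did. In V2 1 of 7 tested rose and 1 fell (12.6% and 11.3% of all genes, 29.3% and 17.2% of the listed genes). PAR2 and PAR1 are atypical HLH proteins induced by shade that restrain elongation by binding the PHYTOCHROME INTERACTING FACTORS. PAR2 had 253, 204 and 236 normalized counts in V3 and 31.9, 20.8 and 21.6 in V2 at 5 d. In buds at 0 d it had 32.8, 24.0 and 38.1 in V3 and 32.9, 37.1 and 15.9 in V2. The V3 libraries at 5 d stood alone, and the other 9 libraries shared a single range. V3 exceeded V2 at 5 d by 3.19 on the log2 scale (SE 0.32, adjusted p = 0.000151), and PAR2 rose by 2.85 in V3 over time (SE 0.32, adjusted p = 0.000268). In V2 its log2 fold change over time was -0.14 (SE 0.33, adjusted p = 0.791).

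PAR1 was higher in V3 than in V2 at 5 d and fell in V2 over time. It had 177, 192 and 177 normalized counts in V3 and 64.9, 60.4 and 57.5 in V2 at 5 d. The counts at 0 d were 81.0, 110.4 and 149.7 in V3 and 138, 152 and 97.4 in V2. The V2 libraries at 5 d were the lowest 3 of all 12 and the V3 libraries at 5 d the highest 3. PAR1 fell by 1.05 in V2 over time (adjusted p = 0.0138), and its log2 fold change in V3 was 0.72 (adjusted p = 0.0574). At 5 d it was higher in V3 than in V2 by 1.56 (SE 0.24, adjusted p = 0.00121), and at 0 d the difference was -0.20 (adjusted p = 0.646).

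KDR and PRE5 encode small HLH proteins of the PACLOBUTRAZOL RESISTANCE family, which promote cell elongation. KDR had 23.4, 79.1 and 59.0 normalized counts in V3 and 20.5, 1.98 and 1.80 in V2 at 5 d. In the 0 d libraries it had 24.6, 11.5 and 20.5 in V3 and 8.22, 2.01 and 3.40 in V2. At each time all V3 libraries lay above all V2 libraries, at 5 d by a narrow gap between the first replicates, while by FPKM the zones overlapped at 0 d. KDR was called higher in V3 at 5 d (log2 fold change 3.12, SE 0.80, adjusted p = 0.0142), and the call ended without replicate 2 of V2 (adjusted p = 0.0536) or of V3 (adjusted p = 0.0521) at 5 d. PRE5 had 51.6, 36.9 and 44.9 normalized counts in V3 and 15.9, 22.8 and 11.7 in V2 at 5 d, and 4.10, 0 and 7.44 in V3 and 19.2, 24.1 and 0 in V2 at 0 d. It rose in V3 over time by 3.69 (SE 1.16, adjusted p = 0.0458). That call ended in 8 of 12 fits that left out 1 library, with an adjusted p of up to 0.126 without V3 0 d replicate 2.

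AIF4, an HLH protein that restrains brassinosteroid growth responses, rose in V3, where its values at 5 d shared the range of V2. Its normalized counts were 750.3, 871 and 671 in V3 and 692, 723 and 722 in V2 at 5 d. Its values at 0 d were 304, 419 and 328 in V3 and 640.0, 455 and 551 in V2. The zones overlapped at 5 d, and at 0 d every V3 library lay below every V2 library. AIF4 rose by 1.13 in V3 (SE 0.16, adjusted p = 0.000964) and had a log2 fold change of 0.39 in V2 (adjusted p = 0.103). At 0 d V3 differed from V2 by -0.64 (adjusted p = 0.0529).

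HBI1, a bHLH factor that promotes elongation downstream of brassinosteroid, had 119, 123 and 83.3 normalized counts in V3 and 213, 141 and 75.4 in V2 at 5 d. The 0 d libraries held 0, 5.76 and 0 in V3 and 42.0 in V2 replicate 1, the other 2 V2 values being left out. The V3 libraries were far apart between the times, and the zones overlapped at 5 d. HBI1 rose in V3 by 5.84 (SE 0.76, adjusted p = 0.00156), while V2 could not be tested. Its FPKM over time was 3.63 to 4.80 against 0.243 to 0.889 in V3 and 3.27 to 7.09 against 0.872 to 1.97 in V2, with no overlap in either zone.

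HFR1, an atypical bHLH factor that restrains shade responses, had 274, 427 and 117 normalized counts in V3 and 447 and 322 in V2 at 5 d, V2 replicate 1 being left out. In buds at 0 d it had 0, 15.4 and 0 in V3 and 0 and 0 in V2 replicates 2 and 3. In both zones all values at 5 d exceeded all values at 0 d. HFR1 rose in V3 by 6.57 (SE 1.07, adjusted p = 0.00417), a call made by neither edgeR nor DESeq2. It was also called higher at 5 d than at 0 d in V2 (adjusted p = 0.00347, n = 2 each), which could not be tested without V2 replicate 2 or 3 of either time. Its FPKM was low, 1.09 to 1.96 in V3 and 1.03 to 1.90 in V2 at 5 d, and 0 to 0.221 in V3 and 0.0248 to 0.124 in V2 at 0 d. HFR1 held 194 normalized counts per FPKM, where the median was 18.7 over the 48 genes and 24.1 over the listed genes.

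PIL6, the elongation-promoting PHYTOCHROME INTERACTING FACTOR also known as PIF5, was lower in V3 by the values but not called. It had 386, 358 and 226 normalized counts in V3 and 1006, 987 and 697 in V2 at 5 d. The counts at 0 d were 97.4, 550.2 and 306 in V3 and 816, 538 and 851 in V2. The zones did not overlap at 5 d and overlapped at 0 d, where V3 replicate 1 was the lowest of all 12 libraries. The log2 fold change of V3 over V2 was -1.49 at 5 d (SE 0.53, adjusted p = 0.0542) and -1.50 at 0 d (SE 0.52, adjusted p = 0.119). Without V2 0 d replicate 3 and V3 0 d replicate 1 the difference at 5 d was called. Of 6 loci of PIF and growth targets and 9 of cuticle wax synthesis none could be paired with a listed gene.

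The regulators of glucosinolates and jasmonate MYB34, AIB and BHLH14 rose in V3. MYB34, which turns on indole glucosinolate and tryptophan synthesis, had 467, 501 and 568 normalized counts in V3 and 313, 313 and 159.9 in V2 at 5 d. Its 0 d values were 139, 151 and 140.4 in V3 and 352, 149.6 and 165 in V2. V3 at 5 d lay above all other libraries, and V2 replicate 1 at 0 d stood above its partners. MYB34 rose by 1.82 in V3 (SE 0.35, adjusted p = 0.00463) and had a log2 fold change of 0.28 in V2 (adjusted p = 0.59). It was higher in V3 than in V2 at 5 d by 1.03 (SE 0.35, adjusted p = 0.0431), a call that ended in 9 of 12 fits without 1 library and without the 2 libraries that stood apart (adjusted p = 0.0579), and had its highest adjusted p, 0.132, without V2 5 d replicate 3.

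AIB, an abscisic acid-inducible bHLH factor that also represses jasmonate responses, had 1104, 1452 and 1227 normalized counts in V3 and 2299, 1721 and 1226 in V2 at 5 d. Its values at 0 d were 84.1, 299 and 193 in V3 and 654, 564 and 1066 in V2. The zones overlapped at 5 d and were apart at 0 d, with V3 replicate 1 the lowest library. AIB rose in V3 by 2.88 (SE 0.44, adjusted p = 0.00142), and its log2 fold change in V2 was 1.21 (SE 0.43, adjusted p = 0.0665). At 0 d it was lower in V3 than in V2, with a log2 fold change of -2.11 (SE 0.43, adjusted p = 0.0271). That call ended without V2 replicate 1 (adjusted p = 0.0734), V2 replicate 3 (0.0907) or V3 replicate 3 (0.0623) at 0 d, and without both libraries that stood apart (adjusted p = 0.104).

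BHLH14, a bHLH factor that represses jasmonate responses together with close relatives of AIB, had 1422, 1360.2 and 1146 normalized counts in V3 and 176, 351 and 149 in V2 at 5 d. The 0 d libraries held 172, 450.3 and 344 in V3 and 167, 197 and 118 in V2. The 3 V3 libraries at 5 d lay far above the other 9. V3 exceeded V2 at 5 d by 2.63 (SE 0.40, adjusted p = 0.00114), and BHLH14 rose in V3 by 2.12 (SE 0.40, adjusted p = 0.00463). In V2 its log2 fold change over time was 0.41 (SE 0.40, adjusted p = 0.483), and the difference between the zones' changes, 1.71, was not called (adjusted p = 0.0909).

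Of 17 loci of glucosinolate synthesis 9 could be paired with a listed gene, and all of these had been listed by the authors on these samples. From 0 d to 5 d 8 of 9 rose in V3, and none fell, where 13.4% of all genes and 34.2% of the listed genes rose. In V2 2 of 9 rose (12.6% of all genes, 29.3% of the listed genes). The count in V3 was 8 without each of the 12 libraries, edgeR called 7 higher, and DESeq2 called 8 higher and 1 lower. Among them CYP83B1, an indole glucosinolate enzyme, averaged 5876 ± 1370 normalized counts in V3 and 3068 ± 554 in V2 at 5 d, and 1375 ± 420 in V3 and 1784 ± 512 in V2 at 0 d. It rose by 2.12 in V3 (adjusted p = 0.000875). At 5 d 4 of 9 were higher in V3 than in V2 (16.2% of all genes, 26.2% of the listed genes). Among them was SOT16, a sulfotransferase of the last step of the core pathway, at 544 ± 190 in V3 and 116 ± 28.9 in V2 (log2 fold change 2.19, adjusted p = 0.00874).

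Secondary wall and vascular regulators MYB43 and ABS5 rose over time in both zones. MYB43, a secondary wall MYB, had 76.0, 77.0 and 54.3 normalized counts in V3 and 35.3, 37.6 and 27.8 in V2 at 5 d. In buds at 0 d it had 0, 0.960 and 0 in V3 and 14.6, 2.01 and 3.40 in V2. The order was V3 at 5 d, V2 at 5 d, V2 at 0 d and V3 at 0 d, with no overlap between neighbours. MYB43 rose by 5.79 in V3 (SE 0.53, adjusted p = 7.4e-05) and by 2.54 in V2 (SE 0.53, adjusted p = 0.00899). MYB43 was called lower in V3 than in V2 at 0 d (log2 fold change -2.24, SE 0.53, adjusted p = 0.0466), a call that ended in 10 of 12 fits without 1 library, with an adjusted p of up to 0.129 without V3 0 d replicate 1. By FPKM the zones overlapped at 0 d, at 0 to 0.168 in V3 and 0.0430 to 0.589 in V2.

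MYB55, also placed with the secondary wall MYB genes, was called in no comparison. It had 169, 122 and 128 normalized counts in V3 and 149, 137 and 114 in V2 at 5 d, and 0, 42.2 and 38.1 in V3 and 76.7, 77.3 and 119 in V2 at 0 d. All V3 libraries at 5 d lay above those at 0 d, and the value of 0 came from V3 0 d replicate 1. Its log2 fold change over time in V3 was 3.55 (SE 1.18, adjusted p = 0.0555), where the authors' deposited value is 2.38. MYB55 was called without V2 0 d replicate 3 and V3 0 d replicate 1. ABS5, a bHLH factor that drives divisions of vascular initials with LONESOME HIGHWAY, averaged 227 ± 42.4 in V3 and 216 ± 15.3 in V2 at 5 d, and 102 ± 18.8 in V3 and 140.2 ± 13.4 in V2 at 0 d. It rose by 1.14 in V3 (SE 0.19, adjusted p = 0.00266) and by 0.62 in V2 (SE 0.20, adjusted p = 0.0448), the second call ending in 9 of 12 fits without 1 library (adjusted p up to 0.11 without V2 5 d replicate 3).

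Vascular markers had a higher summed FPKM at 5 d than at 0 d in V3, while in V2 the times overlapped. The summed FPKM of 5 paired markers (XCP1, XCP2, APL, HA3 and PP2-A1) was 26.4 to 28.3 in V3 and 14.7 to 26.9 in V2 at 5 d, and 1.11 to 3.63 in V3 and 4.97 to 17.1 in V2 at 0 d. XCP1, a protease of xylem cells, was at 0 normalized counts in all 6 libraries at 0 d, and averaged 297 ± 29.0 in V3 and 71.8 ± 41.1 in V2 at 5 d (called higher in V3, adjusted p = 0.00214, though not by edgeR). The markers did not share an order of the zones. PP2-A1, a phloem lectin, averaged 31.5 ± 10.4 in V3 and 125 ± 34.4 in V2 at 5 d (not called), and 5.76 ± 9.98 in V3 and 86.9 ± 75.8 in V2 at 0 d, where it was called lower in V3 (log2 fold change -4.64, adjusted p = 0.0426), a call that ended in 10 of 12 fits without 1 library and by edgeR. APL, a regulator of phloem identity, averaged 73.1 ± 9.34 in V2 at 5 d (n = 2), where all V3 values were left out, and 3.26 ± 4.60 in V3 (n = 2) and 33.9 ± 13.5 in V2 at 0 d. Over time in V3 limma called XCP2 and PP2-A1 higher, but neither edgeR nor DESeq2 did. The part of the vascular markers in the values of MYB43, MYB55 and ABS5 was not tested.

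Of 17 loci of secondary wall and lignin synthesis 5 could be paired, again all from the authors' lists. All 5 rose over time in V3 (4 or 5 without 1 library, and 4 by edgeR), where 13.4% of all genes and 34.2% of the listed genes did. In V2 3 rose and 1 fell (12.6% and 11.3% of all genes, 29.3% and 17.2% of the listed genes). At 5 d 2 were higher in V3 than in V2, where 16.2% of all genes and 26.2% of the listed genes were. At 0 d 4CL1 and FAH1 were called lower in V3, where 3.25% of all genes and 10.1% of the listed genes were. Those calls at 0 d were 0 to 3 genes without 1 library, and 0 by edgeR and without both libraries that stood apart. 4CL1, which activates the phenylpropanoid acids, averaged 938 ± 169 normalized counts in V3 and 952 ± 183 in V2 at 5 d, and 82.1 ± 41.7 in V3 and 257 ± 54.8 in V2 at 0 d. ATCAD4, a cinnamyl alcohol dehydrogenase, rose by 1.58 in V3 (adjusted p = 0.00013) and fell by 0.61 in V2 (adjusted p = 0.0217), the fall ending without V2 0 d replicate 1 (adjusted p = 0.056) or V2 5 d replicate 1 (0.0526) or 2 (0.0738), and by edgeR. MYB7, a repressor of flavonol and phenylpropanoid genes, was called in no comparison. It averaged 60.7 ± 18.5 in V3 and 66.9 ± 8.18 in V2 at 5 d, and 31.7 ± 12.1 in V3 and 83.5 ± 39.4 in V2 at 0 d, where the log2 fold change of V3 over V2 was -1.34 (SE 0.37, adjusted p = 0.0688). Of 6 flavonoid genes paired out of 14 loci, 3 of 5 tested rose over time in V3 (13.4% of all genes, 34.2% of the listed genes). In V2 2 of 6 rose (12.6% and 29.3%). No flavonoid gene fell by limma, while on FPKM 3 fell in V2. Their median log2 fold change over time was 1.05 in V3 and -0.57 in V2. The gene of chalcone synthase, TT4, averaged 6364 ± 706 in V3 and 5148 ± 1873 in V2 at 5 d, and 1151 ± 103 in V3 and 1949 ± 496 in V2 at 0 d. Genes of late anthocyanin steps had other values. AT5MAT, an anthocyanin malonyltransferase, averaged 2.73 ± 3.25 in V3 and 62.5 ± 45.4 in V2 at 5 d, and 21.8 ± 21.4 in V3 and 157 ± 69.1 in V2 at 0 d, and was called lower in V3 at 5 d (log2 fold change -4.06, adjusted p = 0.0116, not called by edgeR). DFR, the dihydroflavonol reductase gene, was listed at 0 in V3 and averaged 33.4 ± 31.4 in V2 at 5 d, and averaged 6.40 ± 11.1 in V3 and 181 ± 135 in V2 at 0 d. LDOX, which acts after DFR, was listed at 0 in V3 and averaged 49.9 ± 44.2 in V2 at 5 d, and averaged 169 ± 92.2 in V2 at 0 d. Neither DFR nor LDOX was called in a comparison tested.

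**Figure D3:**
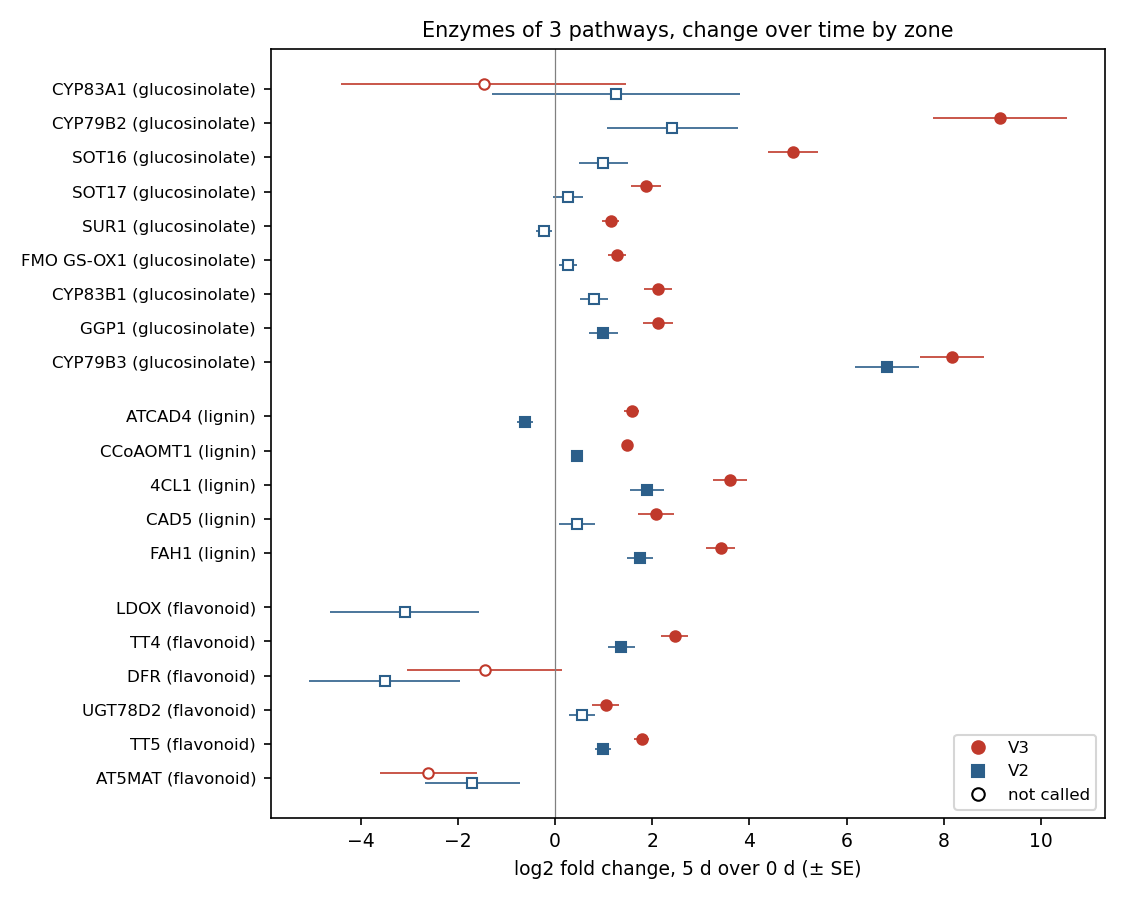
Log2 fold changes of 5 d over 0 d (± SE) for glucosinolate, lignin and flavonoid enzymes that could be paired with a listed gene, with V3 in red and V2 in blue; open symbols were not called. In V3 8 of 9 glucosinolate and 5 of 5 lignin genes lie to the right of 0 and are called.

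The stress and abscisic acid MYB genes were lower in V3 than in V2 by their values, and MYB74 was called lower at 5 d. MYB74, induced by abscisic acid and salt in A. thaliana, had 112, 108 and 229 normalized counts in V3 and 545, 969 and 706 in V2 at 5 d. The counts at 0 d were 544, 990.0 and 864 in V3 and 1538, 1502 and 1870.4 in V2. V3 at 5 d lay below every other library and V2 at 0 d above every other, while V2 at 5 d and V3 at 0 d shared a range. At 5 d V3 differed from V2 by -2.35 (SE 0.34, adjusted p = 0.000847). Over time MYB74 fell by 2.46 in V3 (SE 0.34, adjusted p = 0.00082) and by 1.18 in V2 (SE 0.33, adjusted p = 0.0296). The call in V2 ended without each V2 library at 0 d, and without V2 5 d replicate 1 or 3, with an adjusted p of up to 0.103 without V2 5 d replicate 1. At 0 d V3 differed from V2 by -1.07 (SE 0.33, adjusted p = 0.0898), with no overlap.

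MYBR1, also known as MYB44 and linked to abscisic acid and stomatal closure, had the highest mean FPKM of the 48 genes, 202 over 12 libraries. Its normalized counts were 4131, 3101 and 3079 in V3 and 7559.6, 7314 and 6575 in V2 at 5 d. At 0 d they were 1488, 4543 and 3779 in V3 and 6127, 4762 and 10206 in V2. At both times all V3 libraries lay below all V2 libraries, but the spread at 0 d was wide. MYBR1 was not called in any comparison by limma, at -1.07 for V3 over V2 at 5 d (SE 0.40, adjusted p = 0.0634) and -1.18 at 0 d (SE 0.39, adjusted p = 0.106). Without V2 0 d replicate 3 and V3 0 d replicate 1 it was called at 5 d.

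MYB112, which promotes anthocyanin formation under salt and high light, was listed at 0 in V3 replicates 1 and 2 at 5 d, with replicate 3 left out, and had 34.1, 42.6 and 0 normalized counts in V2. At 0 d it was listed at 0 in all V3 libraries and had 97.7, 50.2 and 51.0 in V2. In V3 no usable library at either time held a count. It was called lower in V3 than in V2 at 0 d (adjusted p = 0.0314), and the call ended in 6 of 12 fits without 1 library, with an adjusted p of up to 0.0972 without V2 0 d replicate 1. Its FPKM at 0 d was 0 to 0.712 in V3 and 4.13 to 7.22 in V2. V3 5 d replicate 3, where the count was listed at 0, had an FPKM of 1.67. Between the zones, senescing-leaf markers lay on the same side. The summed FPKM of 3 paired markers of 4 (NAP, SAG21 and NYE1) was 16.0 to 32.6 in V3 and 172 to 230 in V2 at 5 d, and 4.95 to 15.6 in V3 and 49.8 to 71.4 in V2 at 0 d. Over time the sum was higher at 5 d than at 0 d in both zones, where MYB74 fell. The part of these markers in the values of MYB74, MYBR1 and MYB112 was not tested.

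FLP and KAN3, each described by its own role, rose in V3. FLP, a MYB factor that ends divisions in the stomatal lineage, averaged 340.1 ± 13.6 normalized counts in V3 and 237 ± 26.0 in V2 at 5 d, and 105 ± 37.4 in V3 and 145 ± 35.7 in V2 at 0 d. It rose by 1.76 in V3 (SE 0.29, adjusted p = 0.00232), and its log2 fold change in V2 was 0.74 (SE 0.29, adjusted p = 0.0903). KAN3, a member of the KANADI family that sets the abaxial side of organs, had 282, 307 and 227 in V3 and 113, 149 and 188 in V2 at 5 d, and 94.3, 158 and 130.2 in V3 and 82.2, 179 and 91.8 in V2 at 0 d. V3 at 5 d lay above all the others. KAN3 rose by 1.10 in V3 (SE 0.33, adjusted p = 0.0372), a call that ended in 6 of 12 fits without 1 library (adjusted p up to 0.108 without V3 0 d replicate 1) and without both libraries that stood apart (adjusted p = 0.119). The summed FPKM of the photosynthetic markers RBCS3B and LHCB6 was 777 to 904 in V3 and 419 to 506 in V2 at 5 d, and 429.6 to 577 in V3 and 426 to 498 in V2 at 0 d. Floral markers differed between the groups as well, CRC (a carpel regulator) and UFO (a floral meristem regulator) having a summed FPKM of 6.64 to 10.4 in V3 and 9.25 to 12.3 in V2 at 5 d, and 21.8 to 32.0 in V3 and 10.7 to 20.2 in V2 at 0 d. UFO averaged 70.9 ± 22.0 normalized counts in V3 and 316 ± 43.4 in V2 at 5 d, and 321 ± 41.6 in V3 and 330 ± 36.1 in V2 at 0 d. It was called lower in V3 than in V2 at 5 d (adjusted p = 0.000243) and fell in V3 over time (adjusted p = 0.000211). CRC averaged 69.6 ± 17.9 in V3 and 2.71 ± 2.40 in V2 at 5 d, and 167 ± 67.1 in V3 and 84.4 ± 29.7 in V2 (n = 2) at 0 d. It was called higher in V3 at 5 d (adjusted p = 0.00108) and fell in V2 over time (adjusted p = 0.00227), neither call being made by edgeR. The part of these markers in the values of the 48 genes was not tested.

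MYBC1, a negative regulator of freezing tolerance, had the second highest level, with a mean FPKM of 77.8. It had 575, 619 and 611 normalized counts in V3 and 1136, 1325 and 1415 in V2 at 5 d. Its values at 0 d were 875, 1426 and 891 in V3 and 1888, 1324 and 1239 in V2. The V3 libraries at 5 d were the lowest of all 12 and close together. V3 differed from V2 at 5 d by -1.10 (SE 0.21, adjusted p = 0.00333). MYBC1 fell by 0.78 in V3 over time (SE 0.21, adjusted p = 0.0231), a call that ended without any single V3 library at 5 d (adjusted p 0.0549 to 0.0709), and its log2 fold change in V2 was -0.18 (adjusted p = 0.568).

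The MYB-related genes ASG4 and MEE3 fell in V3. ASG4, a clock-like MYB-related factor of the REVEILLE family, had 4.87, 0 and 0 normalized counts in V3 and 79.7 and 87.1 in V2 replicates 1 and 3 at 5 d, V2 replicate 2 being left out. The 0 d libraries held 40.0, 63.4 and 74.4 in V3 and 129, 116 and 136 in V2. V3 at 5 d lay far below every other usable library, and V3 lay below V2 at both times. ASG4 was lower in V3 than in V2 at 5 d, with a log2 fold change of -5.55 (SE 0.70, adjusted p = 0.000658), a comparison that could not be tested without V2 5 d replicate 1 or 3. It fell by 5.02 in V3 over time (SE 0.62, adjusted p = 0.000758), and its log2 fold change in V2 was -0.60 (SE 0.69, adjusted p = 0.573). By FPKM it ranged over 0.306 to 1.15 in V3 and 5.73 to 6.42 in V2 at 5 d, and 3.66 to 5.93 in V3 and 8.16 to 11.6 in V2 at 0 d.

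MEE3, a small RADIALIS-like MYB protein, had 20.5, 3.17 and 23.4 normalized counts in V3 and 2.28, 8.91 and 15.3 in V2 at 5 d. In buds at 0 d it had 205, 146 and 139 in V3 and 73.0, 80.3 and 73.6 in V2. In each zone all libraries at 5 d lay below all those at 0 d. MEE3 fell by 3.64 in V3 (SE 0.71, adjusted p = 0.00545) and by 3.24 in V2 (SE 0.70, adjusted p = 0.0103). V3 differed from V2 by 0.68 at 5 d (adjusted p = 0.493) and by 1.08 at 0 d (adjusted p = 0.366), with no overlap at 0 d.

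Of the 13 remaining MYB genes, 6 of 11 tested were lower in V3 than in V2 at 5 d, where 19.9% of all genes and 32.7% of the listed genes were. By limma and by edgeR none was higher, and by FPKM KAN3 was. The 6 were MYBC1, MYB53 and the homologues of AT3G24860, AT5G01200, AT5G04760 and AT5G05090, whose annotation gives only a MYB or MYB-like domain. The AT3G24860 homologue had 254, 148 and 315 normalized counts in V3 and 639.6, 749 and 619.7 in V2 at 5 d. The counts at 0 d were 499, 428 and 499 in V3 and 489, 294 and 258 in V2. The order of the zones at 5 d was clear of overlap, while at 0 d they overlapped. V3 differed from V2 at 5 d by -1.54 (SE 0.30, adjusted p = 0.00354). The gene fell by 1.05 in V3 (SE 0.30, adjusted p = 0.0297) and rose by 1.00 in V2 (SE 0.29, adjusted p = 0.035). Each of those calls over time ended without several single libraries, with an adjusted p of up to 0.0816 in V3 (without V3 5 d replicate 2) and 0.106 in V2 (without V2 0 d replicate 3).

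The AT5G05090 homologue had 207, 178 and 170.4 normalized counts in V3 and 565, 561 and 407 in V2 at 5 d, and 224, 186 and 152 in V3 and 290.3, 196 and 176 in V2 at 0 d. V2 at 5 d stood above the other 9 libraries, which shared a range. The gene was lower in V3 than in V2 at 5 d, with a log2 fold change of -1.45 (SE 0.23, adjusted p = 0.00143) and rose by 1.23 in V2 over time (SE 0.23, adjusted p = 0.00543). In V3 its log2 fold change over time was -0.00 (SE 0.23). The AT5G04760 homologue had 184, 114 and 128 normalized counts in V3 and 559, 535 and 577 in V2 at 5 d, and 122, 178 and 113 in V3 and 376, 169.7 and 302 in V2 at 0 d. Here too V2 at 5 d stood alone. Its log2 fold change of V3 over V2 was -1.99 at 5 d (SE 0.31, adjusted p = 0.00118) and -0.99 at 0 d (SE 0.30, adjusted p = 0.0888). It rose by 1.05 in V2 over time (adjusted p = 0.0327), a call that ended without V2 0 d replicate 2 or 3 or any V2 library at 5 d (adjusted p 0.0532 to 0.0848). The AT5G01200 homologue had 44.8, 28.5 and 17.8 in V3 and 105, 103 and 113 in V2 at 5 d, and 27.7, 62.4 and 57.7 in V3 and 177, 99.4 and 105 in V2 at 0 d. V3 lay below V2 at both times, with log2 fold changes of -1.88 at 5 d (SE 0.40, adjusted p = 0.00576) and -1.39 at 0 d (SE 0.40, adjusted p = 0.0761).

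Of the other MYB genes known by a locus, 4 were low. The AT5G56840 homologue had 19.5, 15.8 and 26.2 normalized counts in V3 and 25.0, 45.6 and 21.6 in V2 at 5 d, and was listed at 0 in every usable library at 0 d (V2 replicate 3 was left out). It was at least 7.04-fold higher at 5 d than at 0 d in V3 (adjusted p = 1.02e-05) and was also called higher in V2 (adjusted p = 9.88e-06), where it could not be tested without V2 0 d replicate 1 or 2. Its FPKM was 0.909 to 1.76 in V3 and 1.49 to 3.33 in V2 at 5 d, and 0 in all V3 libraries and 0.252 to 1.21 in V2 at 0 d. The AT5G05790 homologue averaged 33.3 ± 14.4 in V3 and 27.9 ± 3.95 in V2 (n = 2) at 5 d, and 17.1 ± 16.1 in V2 at 0 d, where all V3 libraries were listed at 0. It was called higher at 5 d than at 0 d in V3 (adjusted p = 0.0133), with an FPKM of 1.36 to 2.08 at 5 d and 0 to 0.4996 at 0 d. The AT5G01380 homologue was listed at 0 in V2 at 5 d and had 63.9, 41.2 and 74.8 in V2 at 0 d, and was called lower at 5 d (adjusted p = 0.00446). Its FPKM in V2 was 0.172 to 0.559 at 5 d and 1.69 to 3.42 at 0 d. In V3 it averaged 3.12 ± 5.40 at 5 d and 7.28 ± 7.20 at 0 d. The AT5G45580 homologue was called in none of the comparisons it was tested in, with 0 to 20.6 in V3 and 6.83 to 57.4 in V2 at 5 d.

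Among the bHLH genes placed with iron regulators, PYE fell and the AT4G37850 homologue rose over time in V3. The AT4G37850 homologue had 88.7, 64.4 and 95.5 normalized counts in V3 and 7.97, 53.5 and 0 in V2 at 5 d, and was listed at 0 in all 6 libraries at 0 d. All V3 libraries at 5 d exceeded all V2 libraries, of which replicate 2 was close. It was called higher at 5 d than at 0 d in V3 (adjusted p = 0.00273), where its FPKM was 2.27 to 3.95 at 5 d and 0 to 0.245 at 0 d. It was called higher in V3 than in V2 at 5 d (log2 fold change 3.39, SE 1.09, adjusted p = 0.0358), but the call ended in 5 of 12 fits without 1 library, with an adjusted p of up to 0.0901 without V3 5 d replicate 3, and without both libraries that stood apart (adjusted p = 0.0597). Neither edgeR nor DESeq2 called it there. The means at 5 d were 82.8 ± 16.4 in V3 and 20.5 ± 28.9 in V2, where the value of 0 widens the log2 difference. PYE, which holds iron balance under deficiency, had 136, 47.5 and 74.9 normalized counts in V3 and 92.2, 85.2 and 123 in V2 at 5 d, and 264, 166 and 186 in V3 and 242, 159 and 193 in V2 at 0 d. The zones overlapped at each time, and the times did not overlap in either zone. PYE fell by 1.35 in V3 (SE 0.37, adjusted p = 0.0256), a call that ended in 4 of 12 fits without 1 library, each leaving out a V3 library (adjusted p up to 0.0768 without V3 0 d replicate 1). In V2 its log2 fold change was -0.97 (SE 0.36, adjusted p = 0.0786). Of 13 iron loci only FER1, a ferritin, could be paired. FER1 was lower in V3 than in V2 at 0 d, with a log2 fold change of -1.15 (adjusted p = 0.0452), a call that ended in 11 of 12 fits without 1 library (adjusted p up to 0.124 without V2 0 d replicate 3), without both libraries that stood apart and by edgeR. Its log2 fold change over time was 0.60 in V3 (adjusted p = 0.147) and 0.23 in V2 (adjusted p = 0.576).

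Among the 11 bHLH genes placed in no role group, 3 were higher and 2 lower of 10 tested in V3 than in V2 at 5 d, and over time 2 rose and 6 fell in V3. BHLH14, described above with the jasmonate regulators, was among those higher and those that rose. Of all genes 16.2% were higher and 19.9% lower in V3 at 5 d, and 13.4% rose and 10.9% fell in V3 over time. Of the listed genes 26.2% were higher and 32.7% lower in V3 at 5 d, and 34.2% rose and 15% fell in V3 over time. The AT4G38070 homologue had 1069.9, 1099.6 and 1135 normalized counts in V3 and 340.3, 293 and 477 in V2 at 5 d, and 1274, 805 and 953 in V3 and 517, 653 and 578 in V2 at 0 d. V3 lay above V2 at both times. The difference was 1.60 at 5 d (SE 0.20, adjusted p = 0.000444) and 0.77 at 0 d (SE 0.20, adjusted p = 0.0591), and the gene fell by 0.68 in V2 over time (adjusted p = 0.036), a call that ended in 7 of 12 fits without 1 library (adjusted p up to 0.117 without V2 5 d replicate 2).

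The AT3G56770 homologue had 18.5, 34.8 and 37.4 normalized counts in V3 and 66.0, 88.1 and 79.9 in V2 at 5 d, and 116, 66.3 and 88.4 in V3 and 84.9, 108 and 75.9 in V2 at 0 d. V3 at 5 d lay below all the others. It was lower in V3 than in V2 at 5 d, with a log2 fold change of -1.39 (SE 0.30, adjusted p = 0.00674), and fell by 1.57 in V3 over time (SE 0.30, adjusted p = 0.00522). The AT4G28815 homologue was listed at 0 in V3 replicates 1 and 3 at 5 d, with replicate 2 left out, and had 47.8, 55.5 and 33.2 in V2. Its 0 d values were 10.3 and 40.0 in V3 replicates 1 and 3 and 55.2 and 45.3 in V2 replicates 2 and 3. It was called lower in V3 than in V2 at 5 d (adjusted p = 0.000577) and lower at 5 d than at 0 d in V3 (adjusted p = 0.00247, n = 2 each), and neither comparison could be tested without V3 5 d replicate 1 or 3, nor that over time without V3 0 d replicate 1 or 3. Its FPKM was 0.548 to 1.19 in V3 and 4.02 to 5.11 in V2 at 5 d, and 2.03 to 4.52 in V3 at 0 d.

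The AT3G19500 homologue averaged 66.6 ± 14.5 normalized counts in V3 and 123 ± 27.9 in V2 at 5 d, and 195 ± 78.7 in V3 and 176 ± 78.2 in V2 at 0 d. It fell by 1.48 in V3 (SE 0.37, adjusted p = 0.0173), a call that ended without V3 5 d replicate 1 (adjusted p = 0.0592) or replicate 2 (0.0554). The AT5G51790 homologue had 21.4, 8.44 and 20.6 in V3 and 28.5, 31.7 and 19.8 in V2 at 5 d, and 76.9, 49.0 and 56.7 in V3 and 24.7, 27.1 and 21.5 in V2 at 0 d. V3 at 0 d stood above the other 9 libraries. It fell by 1.87 in V3 (SE 0.34, adjusted p = 0.00366), and at 0 d V3 differed from V2 by 1.26 (SE 0.35, adjusted p = 0.0695).

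The AT1G68240 homologue was listed at 0 in all 6 libraries at 5 d and had 10.3, 4.80 and 31.6 normalized counts in V3 and 29.2, 10.04 and 37.4 in V2 at 0 d. It was at least 5.25-fold lower at 5 d in V3 (adjusted p = 0.00201) and at least 8.44-fold lower in V2 (adjusted p = 0.000772), and neither could be tested without V2 0 d replicate 1 or 3 or V3 0 d replicate 3. Its FPKM was 0 to 0.282 in V3 and 0 to 0.159 in V2 at 5 d, and 2.11 to 5.88 in V3 and 4.86 to 5.67 in V2 at 0 d. P1R1 had 9.74, 12.7 and 14.0 in V3 and 5.69, 3.96 and 7.18 in V2 at 5 d, and 36.9, 33.6 and 20.5 in V3 and 32.0, 28.1 and 24.9 in V2 at 0 d. It fell by 1.22 in V3 (SE 0.25, adjusted p = 0.00741) and by 2.17 in V2 (SE 0.27, adjusted p = 0.000663), and at 5 d it was higher in V3 than in V2 by 1.01 (SE 0.25, adjusted p = 0.0131), a call made by neither edgeR nor DESeq2 and not on FPKM (adjusted p = 0.122). The AT2G18969 homologue averaged 56.7 ± 21.4 in V3 and 31.5 ± 21.0 in V2 at 5 d, and 10.7 ± 10.3 in V3 and 41.1 ± 17.8 in V2 at 0 d. It rose by 2.60 in V3 (SE 0.65, adjusted p = 0.0182), a call that ended in 4 of 12 fits without 1 library (adjusted p up to 0.0635 without V3 5 d replicate 2).

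At the end of the cold the 4 genes called were AIB, MYB43, MYB112 and the AT1G62975 homologue, all lower in V3 than in V2. The AT1G62975 homologue, a bHLH gene, had 72.1, 134 and 127 normalized counts in V3 and 77.4, 185 and 141 in V2 at 5 d, and 44.1, 65.3 and 57.7 in V3 and 273, 129.5 and 151 in V2 at 0 d. The zones shared a range at 5 d and were apart at 0 d. At 0 d V3 differed from V2 by -1.65 (SE 0.40, adjusted p = 0.0487), and the call ended in 9 of 12 fits without 1 library, with an adjusted p of up to 0.135 without V3 0 d replicate 1. None of the 4 calls held in every fit that left out 1 library, and limma called 0 genes without V2 replicate 1, V2 replicate 3 or V3 replicate 3 at 0 d. Without V3 0 d replicate 2, 11 were called. At an unadjusted p under 0.05, 17 genes were lower and 5 higher in V3 with all libraries. Without V2 0 d replicate 3 and V3 0 d replicate 1 none of the 4 was called, and the AT2G18969 homologue was.

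In 42 genes tested over time in both zones, 6 rose in both by limma (MYB106, MYB23, MYB43, HFR1, ABS5 and the AT5G56840 homologue) and 4 fell in both (MYB74, MEE3, P1R1 and the AT1G68240 homologue). The rise of HFR1 in V3 was called by limma only. In V3 alone 11 were called higher and 7 lower, and in V2 alone 2 higher and 3 lower, while 8 were called in neither zone. The AT3G24860 homologue was called in opposite directions. The share of all genes in each of these patterns was not computed, so the counts have no background of their own. In V3 24.3% of all genes and 49.2% of the listed genes were called over time, and in V2 23.9% and 46.5%. A call in a single zone does not show that the zones differ, and the difference itself was tested as the change in V3 minus the change in V2. Of 42 genes tested, 8 were called for that difference, 3 with a higher and 5 with a lower change in V3, where 7.02% of all genes (4.01% higher, 3.01% lower) and 18.5% of the listed genes (10.9% higher, 7.59% lower) were called.

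The 3 genes whose change was higher in V3 were PAR2, PAR1 and MYB43. The difference was 2.99 for PAR2 (SE 0.48, adjusted p = 0.00492) and 1.76 for PAR1 (SE 0.35, adjusted p = 0.0155), and both calls held without each of the 12 libraries in turn. For MYB43 it was 3.25 (SE 0.78, adjusted p = 0.0352), a call that ended in 7 of 12 such fits (adjusted p up to 0.0802 without V3 5 d replicate 2). The 5 genes whose change was lower in V3 were ASG4 and the homologues of AT4G28815, AT3G24860, AT5G51790 and AT5G05090. The difference was -2.05 for the AT3G24860 homologue (SE 0.41, adjusted p = 0.0154) and held without each library. It was -4.42 for ASG4 (SE 0.93, adjusted p = 0.0233), where the call ended without V3 0 d replicate 3 (adjusted p = 0.0529) and could not be tested without V2 5 d replicate 1 or 3. For the AT5G51790 homologue (-1.97, SE 0.52, adjusted p = 0.0485) the call ended in all 12 fits, with an adjusted p of up to 0.108 without V2 5 d replicate 2. For the AT5G05090 homologue (-1.23, SE 0.33, adjusted p = 0.0485) it ended in 9 (adjusted p up to 0.109 without V2 5 d replicate 1). The AT4G28815 homologue was also called (adjusted p = 0.0263). No size is given for it, as both usable V3 libraries at 5 d were listed at 0, and its adjusted p can be too low. Its mean FPKM was 0.891 in V3 and 4.54 in V2 at 5 d, and 2.89 in V3 and 4.54 in V2 at 0 d. The call ended without V2 5 d replicate 1 (adjusted p = 0.0623) or 2 (0.0633) and could not be tested without 6 others.

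**Figure D4:**
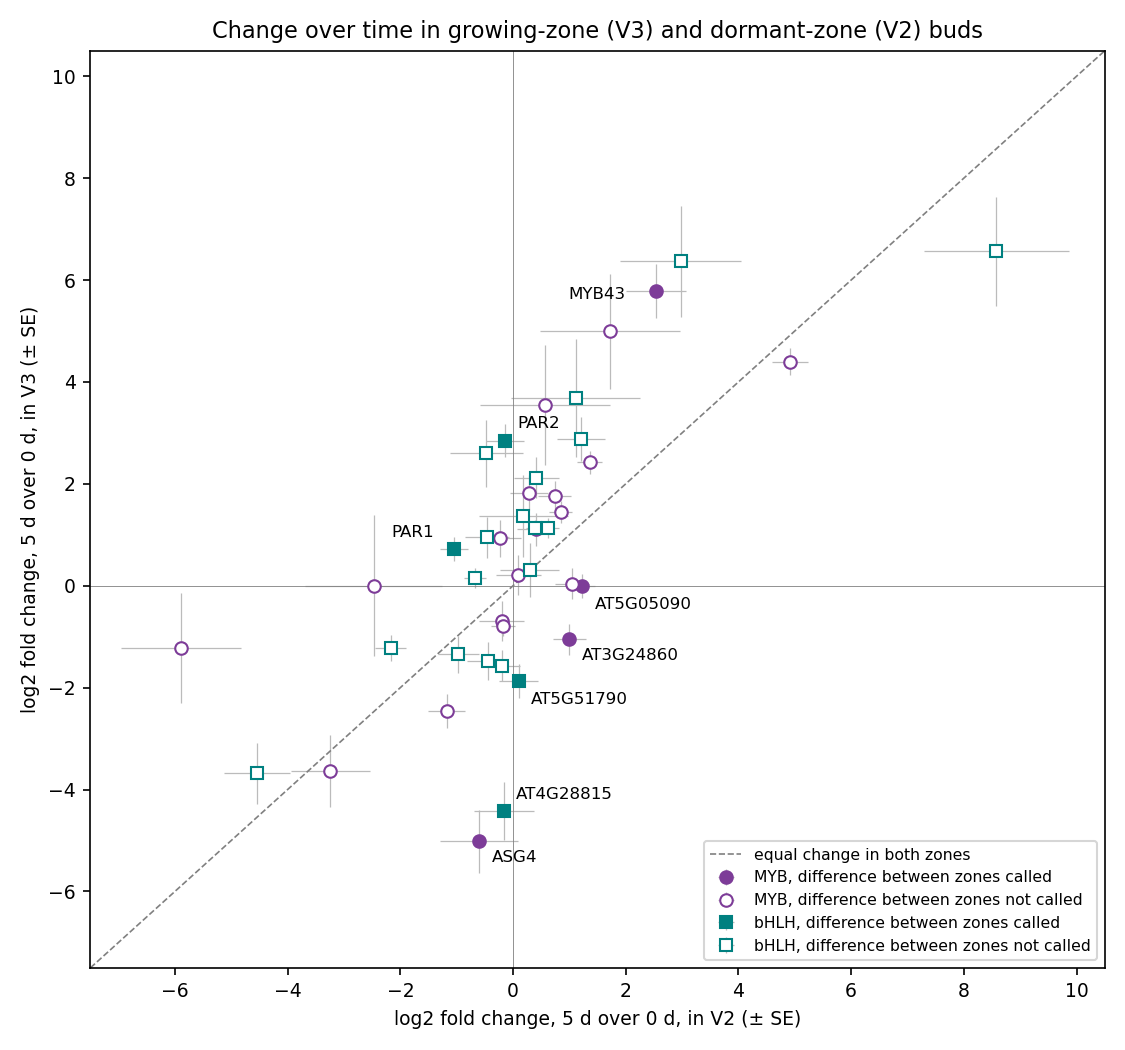
Log2 fold change of 5 d over 0 d in V3 (vertical axis) against that in V2 (horizontal axis), both ± SE, for the 42 genes tested in both zones; circles are MYB and squares bHLH genes. The 8 filled and named genes were called for the difference between the zones, with PAR1, PAR2 and MYB43 above the dashed line of equal change and 5 genes below it.

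Some listings among the 48 genes rested on zeros that FPKM contradicts. MYB53, a MYB factor of suberin formation, had 108, 102 and 106 normalized counts in V3 and 153, 154 and 174 in V2 at 5 d, and 199.9, 260.2 and 209 in V3 at 0 d, but 0 in all 3 V2 libraries at 0 d. The authors' deposited table lists it with a log2 fold change of 10.2 for V3 over V2 at 0 d and 9.75 for 5 d over 0 d in V2. Its FPKM at 0 d was 7.52, 8.40 and 5.62 in V3 and 6.44, 8.20 and 7.15 in V2, so the zones overlapped. With these zeros kept, edgeR and DESeq2 called MYB53 higher in V3 at 0 d and higher at 5 d than at 0 d in V2. Both also called its change over time lower in V3 than in V2. Where it could be tested, MYB53 fell by 1.07 in V3 over time (SE 0.16, adjusted p = 0.00275). It was called lower in V3 than in V2 at 5 d, with a log2 fold change of -0.60 (SE 0.16, adjusted p = 0.0231), which ended in 5 of 12 fits without 1 library (adjusted p up to 0.0672 without V2 5 d replicate 3), and the FPKM of the zones overlapped there.

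The AT5G58340 homologue, the third most abundant by FPKM, was listed at 0 in all 6 libraries at 5 d, and had 1902 and 1699 normalized counts in V3 replicates 1 and 3 and 1464 and 1921 in V2 replicates 1 and 2 at 0 d. The authors' deposited table gives log2 fold changes of -12.7 in V3 and -12.6 in V2 over time. Its FPKM was 41.5 to 42.3 in V3 and 37.2 to 46.4 in V2 at 5 d, and 49.6 to 63.1 in V3 and 46.1 to 52.5 in V2 at 0 d. By FPKM the times were apart in V3 and overlapped in V2. The AT3G61950 homologue was listed by the authors in all 4 tables, with log2 fold changes of 20.8 and -32.8 for V3 over V2 at 5 d and 0 d and 33.8 and -19.8 over time in V3 and V2 in the authors' deposited table. It held counts in 3 libraries only, 102 and 65.4 in V3 at 5 d and 85.3 in V2 at 0 d. Its FPKM was 3.19 to 5.88 in V3 and 2.23 to 3.56 in V2 at 5 d, and 1.69 to 2.09 in V3 and 2.11 to 2.98 in V2 at 0 d. Neither gene was tested in the comparisons for which it was listed.

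**Figure D5:**
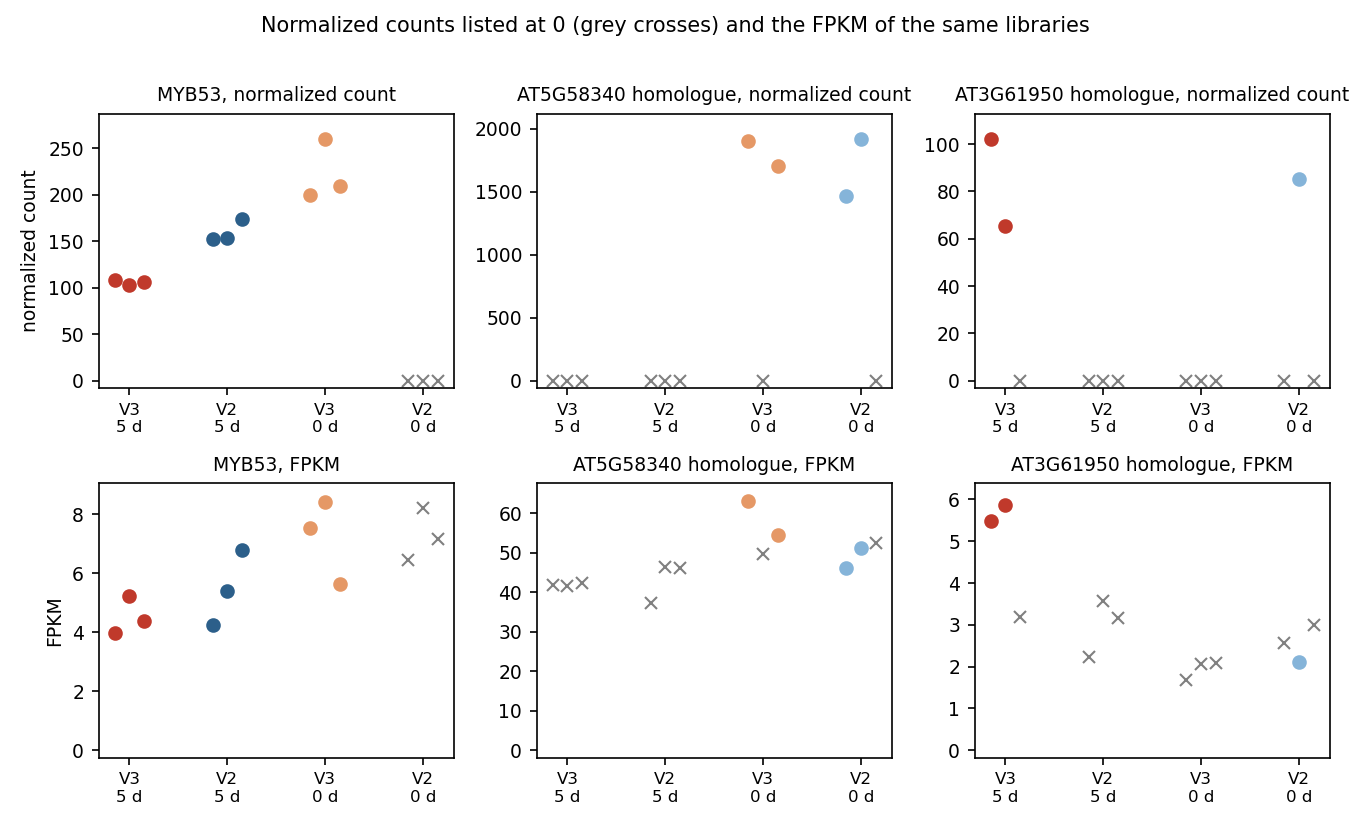
Normalized counts (top) and FPKM (bottom) of MYB53 and the AT5G58340 and AT3G61950 homologues in each library of the 4 groups; grey crosses mark libraries whose normalized count was listed at 0 and left out. MYB53 has 3 crosses in V2 at 0 d with an FPKM of 6.44 to 8.20, the range of its other libraries at 0 d being 5.62 to 8.40.

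Of the genes the authors listed in a comparison and that could be tested in it, limma called 16 of 19 at 5 d, 4 of 10 at 0 d, 28 of 29 over time in V3 and 11 of 13 over time in V2. In FPKM the direction matched the listing, untested genes included, in 20 of 20, 11 of 12, 32 of 32 and 16 of 18. The listings, the FPKM and the limma fits came from the same 12 libraries, and the genes were chosen because they were listed. These matches were therefore largely fixed in advance and are no independent evidence of change. The calls by limma held without each of the 12 libraries in 16 of 20 genes at 5 d, 0 of 4 at 0 d, 24 of 31 over time in V3 and 10 of 16 over time in V2, not counting fits in which a gene could not be tested.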

How the data were processed

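Polyadenylated RNA of 12 libraries, 3 in each of 4 groups, was read as single reads of 150 bp with a directional kit, per the labels' protocols. HISAT2, StringTie, TopHat and DESeq2 are named without role or version in the submitters' processing notes, and neither a genome build nor the strand setting of the counting is stated there. The signal analysed was the table of normalized counts deposited by the authors, gene counts divided by a size factor per library. All values (100% within a tolerance of 0.05) were whole multiples of a step in each library, which gave reads back. The authors' deposited comparison tables also hold FPKM per library, and the log2 fold change and adjusted p-value that the authors calculated, with listed sizes above 1. Coordinates were not used.

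A 0 was left out as failed where the FPKM of that library was at least 1 or predicted at least 20 counts, or, for a gene without FPKM, where a partner library held at least 20. This removed 17395 values over all genes, 5320 of them by FPKM and 12075 by a partner. limma 3.58.1 (R 4.3.3, intensity trend) was fitted to log2(normalized count + 1) of all 12 libraries, for genes with a mean of at least 10 and 2 usable libraries in each group compared, with Benjamini-Hochberg adjustment over all genes tested. The labels tie replicate numbers to no shared plant, so no block was used. edgeR 4.0.16 and DESeq2 1.42.0 on the recovered reads with zeros as deposited, other pseudocounts, filters and scaling, and fits without each library were alternatives. The scripts were tested on simulated data.

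The members and lists were chosen with earlier results of these data known. Within each comparison, the 5 called genes per direction with the largest fold change at a mean of at least 50 were to be named, with up to 3 genes of each role list, the most abundant gene of a list never called, and genes listed at 0 in a whole group. TCL2, KDR, PRE5, KAN3, MYBC1, P1R1, MYB53 and further homologues outside this rule are described so that the set is covered, and were chosen after their values were seen. Of the genes that matched the text, 2 are not reported here.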

Additional observations from a re-analysis of the deposited data

Results flagged for a closer look

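The change from 0 d to 5 d differed between V3 and V2 in 8 genes by limma, with the difference itself tested (change in V3 minus change in V2, log2 scale). It was higher in V3 for MYB43 (3.25), PAR2 (2.99) and PAR1 (1.76). It was lower in V3 for ASG4 (-4.42) and the homologues of AT4G28815 (-4.26), AT3G24860 (-2.05), AT5G51790 (-1.97) and AT5G05090 (-1.23). PAR1 and PAR2 were also called by edgeR and DESeq2, and MYB43 and the homologues of AT3G24860, AT5G51790 and AT5G05090 by DESeq2 but not by edgeR. Among the 8, ASG4 and the AT4G28815 homologue were called by neither of those tools. Both hold values that were left out, ASG4 in 1 library and the AT4G28815 homologue in 3. With only zeros contradicted by FPKM left out, limma called 1 gene for the difference, with a higher change in V3. No explanation of the differences between the zones was tested.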

How the results depend on the processing

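Of the 48 genes, limma called 20 in V3 over V2 at 5 d, 4 in V3 over V2 at 0 d, 31 over time in V3, 16 over time in V2 and 8 for the difference between the zones. No called result of a named gene changed sign under any alternative run. edgeR called 13, 1, 18, 8 and 3. At 0 d, over time in V2 and for the difference, the edgeR calls included MYB53, whose V2 zeros at 0 d FPKM contradicts. At 0 d, 0 were called with only zeros contradicted by FPKM left out (85 of all genes), 2 with no filter, 2 at a mean of at least 50, 1 with only the groups compared, 1 without V2 0 d replicate 3 and V3 0 d replicate 1 together, 13 by DESeq2 and 19 by limma on log2(FPKM + 1) of the listed genes, an alternative chosen after seeing the data. For the difference between the zones, 4 were called with zeros as deposited, 1 with only zeros contradicted by FPKM left out, 4 at a mean of at least 50 and 23 on FPKM. Without 1 library, the counts ranged over 16 to 21 and 0 to 11 for the zones at 5 d and 0 d, 24 to 31 and 9 to 17 over time in V3 and V2, and 3 to 9 for the difference. The replicate block gave 1 at 0 d and 4 for the difference, and moved no other count by more than 1.5 times. Samples of the same number did not pair: their deviations correlated at -0.135 to 0.103 over 18 pairs, 1 of them above 0.1.

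The background depends on the zeros. Over all genes limma called 6235, 724, 4175, 3955 and 1126. With zeros as deposited it called 3131, 577, 2052, 2140 and 764, and with only zeros contradicted by FPKM left out 3161, 85, 2042, 1691 and 295. edgeR called 2760, 394, 1583, 1705 and 516. DESeq2 called 2193 at 0 d and 2051 for the difference. TMM scaling moved the median of all genes by less than 0.1 in each comparison. Genes with under 2 usable libraries in a group could not be tested, among them MYB53, HBI1 and the homologues of AT5G45580, AT5G58340 and AT3G61950. All 48 genes have FPKM, so the same of their zeros were left out in the main fit and with only zeros contradicted by FPKM left out. Their calls still differed, at 20, 4, 31, 16 and 8 against 16, 0, 26, 11 and 1. Other genes enter these calls through the estimate of the spread and the adjustment, and the share of each was not tested. The cause of the other differences in count was not tested.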
